A study of Mus musculus with 10 samples.

Results

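The 10 genes described here carry pyruvate into mitochondria and set whether it becomes acetyl-CoA. They are the carrier subunits Mpc1 and Mpc2, the pyruvate dehydrogenase subunits Pdha1, Pdhb and Dlat, the kinases Pdk1, Pdk2, Pdk3 and Pdk4, and the phosphatase Pdp1. They were taken by symbol from a table of raw counts for 25239 mouse genes, and all 10 were found.

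Pyruvate made by glycolysis crosses the inner mitochondrial membrane through a carrier built of MPC1 and MPC2. The pyruvate dehydrogenase complex then turns it into acetyl-CoA, the substrate of the citrate cycle and the building block of ketone bodies, fatty acids and cholesterol. Pyruvate dehydrogenase kinases switch the complex off by phosphorylating its E1α subunit, and pyruvate dehydrogenase phosphatases remove that phosphate.

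MLTC-1, a mouse Leydig tumour line, was given hymeglusin, a beta-lactone inhibitor of the cholesterol synthesis pathway (n = 3), or the solvent DMSO (n = 3). Untreated primary Leydig cells, the testosterone-producing cells of the testis, came from mice aged 24 months (n = 2) or 2 months (n = 2). The series title ties impaired ketogenesis in Leydig cells to testicular ageing. Genotype, strain, the dose and duration of hymeglusin and the isolation of the primary cells are not given in the labels, and MLTC-1 is a single line. Since nothing states that replicates came from separate cultures or animals, the p-values reflect only the spread among these samples, and that spread may be technical.

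Libraries held 17407456 to 34787330 counts. The 10 most abundant genes held 9.65% and 6.64% of all counts at 24 months, against 2.78% to 4.80% elsewhere. The older pair also differed most from each other (chi-square per degree of freedom 134, against 18.9 at 2 months and 3.44 to 7.67 in MLTC-1). Of 9 Leydig cell markers, the summed level was 6531 to 6684 CPM (counts scaled to library size) with hymeglusin, 8934 to 9182 CPM with DMSO, 19550 to 29160 CPM at 24 months and 20060 to 22150 CPM at 2 months. Hsd17b3, which makes testosterone in Leydig cells, stood at 0.296 CPM or less in MLTC-1, with 0 counts in DMSO libraries 1 and 2. The markers did not all go that way. In MLTC-1 with DMSO against 2-month cells, 7 of the 9 were lower and 2, Hsd3b1 and Nr5a1, were higher. Nr5a1 had 1478, 1497 and 1509 CPM with DMSO, against 874.9 and 714.8 CPM at 2 months. Among other cells, 13 spermatid markers summed to 7678 to 13850 CPM at 24 months and 2543 to 3564 CPM at 2 months, and 12 macrophage markers to 140.8 to 148.9 CPM and 21.0 to 22.6 CPM. In MLTC-1 they summed to 5.52 to 8.17 CPM and 1.27 to 4.96 CPM, with the spermatid genes Tnp2, Akap4, Smcp and Pdha2 at 0 counts in all 6 libraries. Most of the macrophage sum at 24 months was Cd14, with 97.6 and 110.3 CPM, against 9.02 and 8.29 CPM at 2 months. C1qb had 13.0 and 6.17 CPM against 1.44 and 1.42 CPM, but Adgre1 had 0.439 and 0.266 CPM against 0.577 and 0.947 CPM.

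The members differed in how far their levels moved across the 4 groups. To compare genes with each other, CPM on a scale common to all 10 libraries were divided by transcript length in kilobases (kb). The carrier was unequal in its subunits. Mpc2 stood at 31.1 ± 1.52 CPM per kb with hymeglusin, 28.6 ± 0.494 with DMSO, 170.3 ± 19.8 at 24 months and 50.7 ± 6.50 at 2 months (SD, n = 3, 3, 2 and 2, as for all group levels below). Mpc1 stood at 10.6 ± 0.733, 12.0 ± 1.87, 13.1 ± 2.80 and 7.82 ± 0.00143 CPM per kb in the same order of groups. Mpc2 was the higher of the pair in every library. The ratio of Mpc2 to Mpc1 was 2.72 to 3.17 with hymeglusin, 2.00 to 2.64 with DMSO, 10.4 to 16.6 at 24 months and 5.90 to 7.07 at 2 months.

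Among the catalytic subunits, Pdhb and Dlat varied least. Pdhb, the E1β subunit, had group means of 110.2 ± 1.40 CPM per kb with hymeglusin, 113.4 ± 4.19 with DMSO, 107.1 ± 21.0 at 24 months and 87.8 ± 5.29 at 2 months, the narrowest range of the 10 members (0.37 on the log2 scale). Pdha1, the E1α subunit that the kinases phosphorylate, stood at 42.1 ± 1.64, 40.5 ± 2.18, 19.2 ± 16.2 and 21.3 ± 1.27 CPM per kb in those groups. The SD at 24 months was nearly as large as the mean, because the libraries stood at 7.72 and 30.6 CPM per kb. Dlat, the E2 acetyltransferase core, stood at 14.8 ± 0.290, 15.5 ± 0.428, 12.3 ± 3.70 and 19.1 ± 0.593 CPM per kb. Pdp1, the phosphatase catalytic subunit, stood at 5.47 ± 0.438, 4.76 ± 0.188, 14.8 ± 8.28 and 12.1 ± 1.90 CPM per kb, with the 24-month libraries at 8.96 and 20.7.

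The kinases Pdk2 and Pdk1 showed the widest spread, and the line and the primary cells differed in which kinase led. Pdk1, a kinase known to be induced in hypoxia, stood at 19.9 ± 0.755 CPM per kb with hymeglusin, 55.2 ± 1.88 with DMSO, 5.94 ± 1.64 at 24 months and 9.76 ± 0.141 at 2 months. Pdk2, the widely expressed kinase, stood at 7.4 ± 0.724, 9.76 ± 0.759, 140.7 ± 31.7 and 144.6 ± 13.3 CPM per kb. Its group means spanned 4.25 on the log2 scale, the widest of the 10 members, followed by Pdk1 (3.22), Mpc2 (2.55) and Pdk4 (2.55). Pdk3 stood at 17.4 ± 1.28, 21.9 ± 1.55, 11.9 ± 0.322 and 9.07 ± 1.90 CPM per kb. Pdk4, which fasting and glucocorticoids induce, stood at 8.77 ± 0.306, 9.83 ± 0.716, 17.9 ± 9.36 and 52.1 ± 3.43 CPM per kb.

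**Figure D1:**
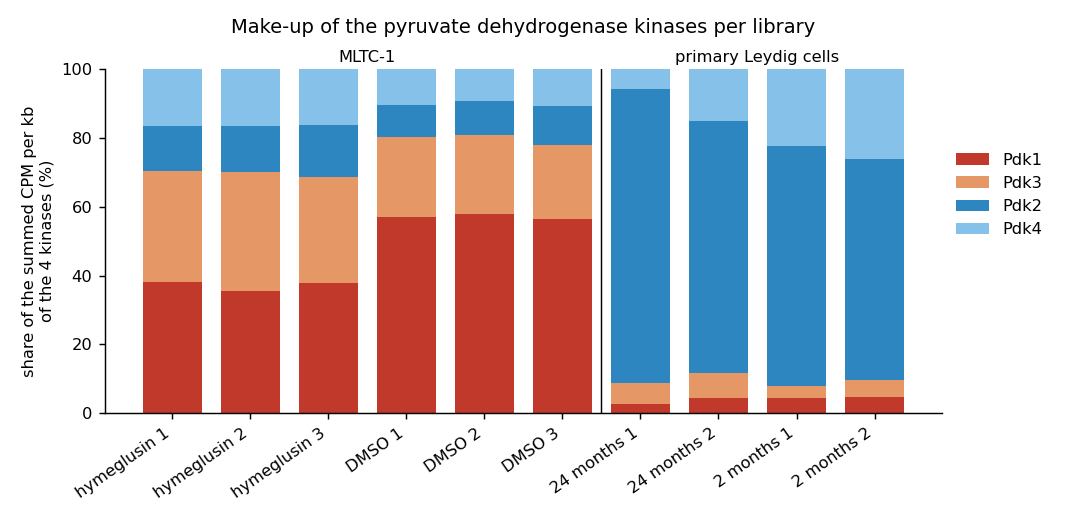
Share of each kinase in the summed CPM per kb of the 4 pyruvate dehydrogenase kinases (vertical axis, percent) in each of the 10 libraries (horizontal axis). Pdk1 took 35.6% to 38.0% with hymeglusin and 56.5% to 57.9% with DMSO, whereas Pdk2 took 73.2% to 85.3% at 24 months and 64.5% to 69.6% at 2 months.

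Within each library, Pdk1 made up 38.0%, 35.6% and 37.9% of the kinase transcripts per kb with hymeglusin, against 56.9%, 57.9% and 56.5% with DMSO. It made up 2.5% and 4.39% at 24 months and 4.46% and 4.61% at 2 months. Pdk2 took 85.3% and 73.2% of kinase transcripts at 24 months and 69.6% and 64.5% at 2 months, but 13.2% to 15.0% with hymeglusin and 9.12% to 11.2% with DMSO. Thus the most abundant kinase was Pdk1 in each MLTC-1 library and Pdk2 in each primary library. The shares of hymeglusin and DMSO libraries did not overlap for any of the 4 kinases, and an exact permutation test gave p = 0.1 for each (two-sided), the smallest that 3 against 3 libraries allow. The shares of a library have a fixed total, so these 4 results are not independent. Pdk2, Pdk3 and Pdk4 rose in share only because Pdk1 fell more than they did.

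The promoters of the kinases are shown because these 4 genes fell together with hymeglusin and differed between the line and the primary cells. Each is the 250 bases before an annotated start of the gene, from RefSeq on GRCm38.p6, written 5′ to 3′ on the strand of the gene, and capitals mark the core of the hypoxia response element, ACGTG or GCGTG, on either strand. Pdk1 lies at chr2:71872974-71873223 (+), Pdk2 at chr11:95041372-95041621 (-), Pdk3 at chrX:93832151-93832400 (-) and Pdk4 at chr6:5496279-5496528 (-).
Pdk1: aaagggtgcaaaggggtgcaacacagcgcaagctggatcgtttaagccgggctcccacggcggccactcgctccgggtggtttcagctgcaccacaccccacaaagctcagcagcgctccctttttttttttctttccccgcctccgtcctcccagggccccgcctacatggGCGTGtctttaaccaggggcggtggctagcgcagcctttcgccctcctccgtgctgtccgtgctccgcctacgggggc
Pdk2: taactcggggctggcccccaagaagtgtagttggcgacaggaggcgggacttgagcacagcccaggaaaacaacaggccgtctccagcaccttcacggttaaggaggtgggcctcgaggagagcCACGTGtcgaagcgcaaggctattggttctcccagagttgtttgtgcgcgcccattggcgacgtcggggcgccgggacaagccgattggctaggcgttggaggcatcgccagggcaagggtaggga
Pdk3: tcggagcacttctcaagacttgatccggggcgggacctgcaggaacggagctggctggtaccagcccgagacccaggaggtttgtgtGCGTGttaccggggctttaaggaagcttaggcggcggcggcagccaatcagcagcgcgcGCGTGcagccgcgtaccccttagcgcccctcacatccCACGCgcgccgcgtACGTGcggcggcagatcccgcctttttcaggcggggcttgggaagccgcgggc
Pdk4: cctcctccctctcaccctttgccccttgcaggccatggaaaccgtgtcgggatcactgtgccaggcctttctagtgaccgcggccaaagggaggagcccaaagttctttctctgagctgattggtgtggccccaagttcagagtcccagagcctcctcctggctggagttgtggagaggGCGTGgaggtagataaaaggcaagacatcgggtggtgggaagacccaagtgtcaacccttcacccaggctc
Pdk1 held 1 match, GCGTG at 78 bases before the start, and Pdk4 held 1, GCGTG at 71 bases. Pdk2 held the palindrome CACGTG, which counts as 2 overlapping matches of ACGTG on opposite strands. Pdk3 held 4 matches, 1 of ACGTG and 3 of GCGTG. At least 1 match stood in 38.6% of 32851 promoter windows of the same length, at least 2 in 16.7% and at least 3 in 6.58%. Of 9 members with a window, 8 held a match and Dlat held none in these 250 bases. Both motifs hold the letters CG, and the windows of the members were 58.8% to 73.6% G and C. The 32851 windows were not matched for this, so the shares do not show whether the members hold more matches than similar promoters. A match describes the letters only, and binding was not measured.

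The first comparison asked how hymeglusin changed these genes in MLTC-1. All 4 kinases fell, Pdk1 by far the most, and Pdhb and Dlat fell slightly. Libraries of the groups did not overlap for 7 members, as for 54.9% of all genes, and overlapped for Mpc2, Pdha1 and Pdp1. By edgeR's quasi-likelihood F-test with Benjamini-Hochberg adjustment over 12873 genes, 0 of 10 members rose and 6 fell, where 23.8% of all genes rose and 24.5% fell (48.3% in all). By DESeq2 and at an unadjusted p under 0.05 too, 0 members rose. The median log2 fold change was -0.20 over the members and 0.01 over all genes.

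Pdk1 had 102.2, 102.4 and 106.8 CPM with hymeglusin, against 312.7, 309 and 295.6 CPM with DMSO (mean 103.8 ± 2.60 against 305.8 ± 8.99, SD, n = 3 each). Every hymeglusin library was well below every DMSO library. The log2 fold change was -1.56 (SE 0.0488, adjusted p = 1.4e-23), which is 2.94-fold lower. No setting tried moved it outside -1.58 to -1.45.

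Pdk2 had 15.4, 16.6 and 18.2 CPM with hymeglusin, against 21.7, 23.1 and 25.4 CPM with DMSO. The groups did not overlap, and the log2 fold change was -0.48 (SE 0.0865, adjusted p = 1.96e-05). Pdk3 had 35.4, 40.5 and 35.4 CPM with hymeglusin, against 52.7, 49.7 and 45.9 CPM with DMSO. Here too the groups were apart, and its log2 fold change was -0.41 (SE 0.0683, adjusted p = 4.91e-06). Pdk4 had 29.8, 31.8 and 30.8 CPM with hymeglusin, against 38.7, 33.2 and 37.8 CPM with DMSO. Its hymeglusin libraries lay below all DMSO libraries, DMSO library 2 being the nearest (log2 fold change -0.24, SE 0.0717, adjusted p = 0.00499). When all 10 libraries were fitted together, the adjusted p-values of Pdk2, Pdk3 and Pdk4 were 0.151, 0.188 and 0.783, and Pdk1 was the 1 member called (0.000913). Under total-count scaling Pdk4 was at 0.104.

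**Figure D2:**
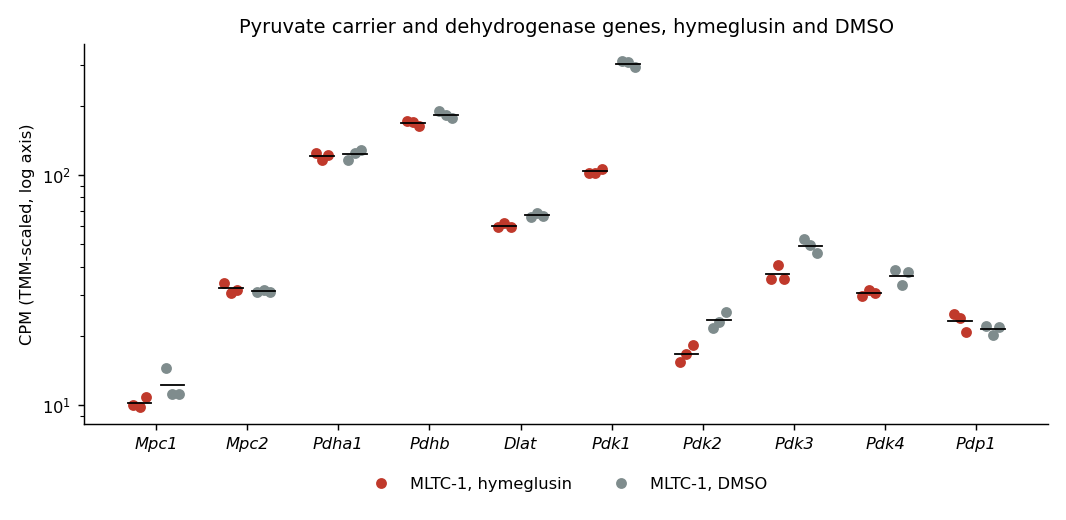
CPM of the 10 genes (vertical axis, log scale) in each MLTC-1 library, hymeglusin in red left of DMSO in grey; points are libraries and lines are group means (n = 3 each). Pdk1 stood at 102.2 to 106.8 CPM with hymeglusin, below the 295.6 to 312.7 CPM with DMSO, while Mpc2, Pdha1 and Pdp1 overlapped.

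The summed level of the kinases was 51.0, 54.6 and 54.7 CPM per kb with hymeglusin, against 98.9, 97.4 and 93.9 CPM per kb with DMSO. Set against the mean of the E1 subunits Pdha1 and Pdhb in the same library, it was 0.661, 0.725 and 0.720 with hymeglusin and 1.28, 1.25 and 1.25 with DMSO. Against the summed phosphatases Pdp1 and Pdp2, it was 3.61, 4.04 and 4.31 with hymeglusin and 7.70, 7.31 and 7.18 with DMSO. Each of these measures was lower in every hymeglusin library than in any DMSO library (exact permutation p = 0.1 each, two-sided, again the smallest possible). All of them contain the kinase sum, so they are not independent of each other or of Pdk1. The mean sum was 53.4 CPM per kb with hymeglusin and 96.7 with DMSO, in which Pdk1 stood at 19.9 and 55.2. The summed phosphatases were 13.4 ± 0.737 CPM per kb with hymeglusin and 13.1 ± 0.240 with DMSO (exact permutation p = 0.5, n = 3 each).

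Pdhb had 171.4, 169.7 and 163.4 CPM with hymeglusin, against 189.6, 183.1 and 176.7 CPM with DMSO. Dlat had 59.5, 61.8 and 59.3 CPM with hymeglusin, against 65.7, 68.1 and 66.4 CPM with DMSO. Both sets of libraries stood apart, but the differences were small, -0.12 on the log2 scale (SE 0.0485, adjusted p = 0.034) for Pdhb and -0.15 (SE 0.0563, adjusted p = 0.026) for Dlat. Neither call held under every setting. Pdhb was at 0.118 with upper quartile scaling and 0.777 with total counts, and Dlat was at 0.0793 and 0.525 with those scalings. With an offset for RefSeq-matched transcript length Pdhb was at 0.0817, but with an offset from the longest annotated transcript it was at 0.0414. With the 10 CPM filter Pdhb and Dlat were at 0.0796 and 0.0551. Leaving out DMSO library 1, DMSO library 2, hymeglusin library 1 or hymeglusin library 3 put Pdhb at 0.096, 0.0972, 0.0561 and 0.12. Leaving out DMSO library 2, hymeglusin library 1 or hymeglusin library 3 put Dlat at 0.117, 0.083 and 0.0725.

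Of the carrier, Mpc1 had 10.03, 9.80 and 10.9 CPM with hymeglusin, against 14.5, 11.2 and 11.1 CPM with DMSO. The groups were apart by a narrow margin, DMSO library 1 standing above the rest, and the test was not passed (log2 fold change -0.25, SE 0.112, adjusted p = 0.0608). Without DMSO library 2 or 3 it was passed (0.0354 and 0.0263). Mpc2 had 34.0, 30.8 and 31.7 CPM with hymeglusin, against 31.2, 31.6 and 31.1 CPM with DMSO. Its 95% interval of the log2 fold change was -0.10 to 0.18, that of Pdha1 was -0.13 to 0.08 and that of Pdp1 was -0.05 to 0.29. Pdp1 passed the test under total-count scaling (log2 fold change 0.23, adjusted p = 0.0222).

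Among the other genes of the system, 4 of 8 tested fell and 1 rose with hymeglusin, where 24.5% of all genes fell and 23.8% rose. Pcx, which carboxylates pyruvate to oxaloacetate, changed most, standing at 875.9 ± 71.3 CPM with hymeglusin and 1282 ± 36.1 CPM with DMSO (n = 3 each; log2 fold change -0.55, adjusted p = 1.63e-11). Pdhx, the E3-binding protein, changed by -0.22 (adjusted p = 0.00031) and Dld, the E3 subunit, by -0.25 (adjusted p = 0.000157). Of the phosphatase subunits, Pdp2 changed by -0.15 (adjusted p = 0.0496) and Pdpr, the regulatory subunit, by 0.19 (adjusted p = 0.0103). Neither of these phosphatase calls held under every setting. Pdp2 was at 0.0605 by DESeq2. On leaving out 1 library the adjusted p reached 0.233 for Pdp2 and 0.116 for Pdpr. Lias, Lipt1 and Lipt2, which make and attach the lipoyl group of E2, were not called, and Pdha2, the testis-specific E1α, had 0 counts in all 6 libraries.

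In related lists more genes fell, where 24.5% of all genes fell and 23.8% rose. These lists were chosen with earlier results of these data known. Of the 2-oxo acid dehydrogenases related to the complex, 8 of 9 fell and 0 rose (also 0 by DESeq2 and at an unadjusted p under 0.05; median -0.28), led by Ogdhl (-0.64) and Bckdhb (-0.53). Of genes that make pyruvate or use it otherwise, 14 of 15 fell and 0 rose (0 by DESeq2 and unadjusted; median -0.52). Ldha, which converts pyruvate to lactate, stood at 981.4 ± 61.2 CPM with hymeglusin and 1885 ± 72.4 CPM with DMSO, and Pkm, which makes pyruvate, at 2236 ± 172 and 3668 ± 25.1 CPM. Of 12 known targets of the hypoxia-inducible factor other than Pdk1, 11 fell and 1 rose (median -0.97). Ak4 (-1.89), Pgk1 (-1.07) and Bnip3 (-1.55) had the smallest adjusted p among those that fell, and Car9 rose by 0.48 (adjusted p = 0.0161). Of 10 genes known as targets of PPAR receptors, FOXO factors or the glucocorticoid receptor, as Pdk4 is, 7 fell and 1 rose (median -0.25). Acadm, a fatty acid oxidation enzyme, changed by -0.62 and Fabp3, a fatty acid-binding protein, by -0.43, while Cpt1a rose by 0.13 (adjusted p = 0.0252). Of 8 Leydig cell markers tested, 5 fell and 1 rose beside these changes, and their part in them was not tested.

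The second comparison set primary Leydig cells of 24 months against those of 2 months. Mpc2 rose and Pdk4 fell, and the other 8 members did not pass the test. Libraries of the groups did not overlap for 6 members, as for 73.8% of all genes. By edgeR over 16381 genes, 1 of 10 members rose and 1 fell, where 13.5% of all genes rose and 15.1% fell (28.6% in all). The median log2 fold change was 0.07 over the members and -0.01 over all genes. The spread between libraries was larger here (biological coefficient of variation 0.307, against 0.0509 in MLTC-1). In these bulk samples fewer cells of a type and less RNA per cell cannot be told apart.

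Mpc2 had 175.2 and 149.8 CPM at 24 months, against 47.0 and 52.9 CPM at 2 months (mean 162.5 ± 18.0 against 49.9 ± 4.18, n = 2 each). Both 24-month libraries lay far above both 2-month libraries, and the log2 fold change was 1.70 (SE 0.324, adjusted p = 0.0104), which is 3.25-fold. Changes with age followed transcript length over all genes: 52.7% of genes rose in the decile of shortest transcripts and 0.873% in that of longest. Mpc2, with a transcript of 1025 bases, lies in the second decile, where 32% of genes rose and the median log2 fold change was 0.94. With an offset for RefSeq-matched transcript length, the log2 fold change of Mpc2 was 0.60 (adjusted p = 0.199), and with length and GC content 0.58 (adjusted p = 0.112). Offsets from the longest annotated transcript, 4015 bases for Mpc2, gave 2.2 (adjusted p = 0.00173). Without 2-month library 1 or 2 the adjusted p was 0.171 and 0.1.

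Mpc1 has a RefSeq-matched transcript of 958 bases, near that of Mpc2, but its longest annotated transcript, 961 bases, is far shorter. Mpc1 had 9.90 and 13.5 CPM at 24 months, against 7.45 and 6.99 CPM at 2 months. The groups were apart but the test was not passed (log2 fold change 0.70, SE 0.378, adjusted p = 0.183), and its direction turned with the RefSeq length offset (-0.39). Without 24-month library 1 the adjusted p was 0.0385. The ratio of Mpc2 to Mpc1 was 16.6 and 10.4 at 24 months, against 5.90 and 7.07 at 2 months. With 2 libraries against 2, an exact permutation test cannot go below p = 0.333, the value it gave. The part of transcript length in this ratio was not tested.

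Pdk4 had 36.4 and 79.8 CPM at 24 months, against 171.8 and 177.1 CPM at 2 months. Both 24-month libraries were lower, though they differed from each other. The log2 fold change was -1.58 (SE 0.411, adjusted p = 0.0235), 2.999-fold lower, and with the RefSeq length offset -1.20 (adjusted p = 0.0371). The call was lost under total-count scaling (0.0622) and without 2-month library 1 (0.109) or 2 (0.0939), the log2 fold changes being -1.75, -1.62 and -1.58. Pdk4 thus took 5.89% and 15.2% of kinase transcripts per kb at 24 months, against 22.4% and 26.0% at 2 months.

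**Figure D3:**
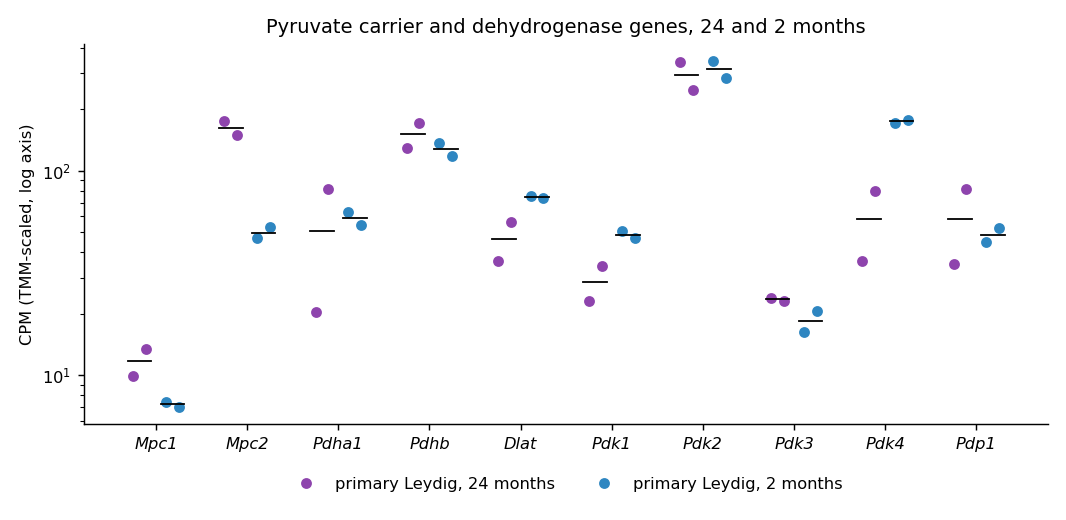
CPM of the 10 genes (vertical axis, log scale) in each primary Leydig cell library, 24 months in purple left of 2 months in blue; points are libraries and lines are group means (n = 2 each). Mpc2 stood at 149.8 to 175.2 CPM at 24 months, above 47.0 to 52.9 CPM at 2 months, and Pdk4 at 36.4 to 79.8 CPM, below 171.8 to 177.1 CPM.

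Pdk1 had 23.0 and 34.4 CPM at 24 months, against 50.8 and 46.7 CPM at 2 months. It was lower in both older libraries but not called (log2 fold change -0.76, SE 0.337, unadjusted p = 0.0483, adjusted p = 0.113). Its transcript of 5185 bases falls in the ninth decile of length, where 39.5% of genes fell. With the RefSeq length offset its direction turned (0.22). Without 24-month library 1 or 2 the adjusted p was 0.0315 and 0.000615. Pdk2, the leading kinase of these cells, had 339.7 and 248.4 CPM at 24 months, against 343.6 and 283.3 CPM at 2 months, and the groups overlapped (log2 fold change -0.09, 95% interval -0.84 to 0.66). Pdk3 had 23.9 and 23.2 CPM at 24 months, against 16.2 and 20.5 CPM at 2 months (log2 fold change 0.35, adjusted p = 0.429).

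Of the enzyme itself, Pdha1 had 20.4 and 81.5 CPM at 24 months, against 62.9 and 54.3 CPM at 2 months. The older libraries lay on either side of the younger ones, and the log2 fold change of -0.20 (SE 0.539) became 0.43 (adjusted p = 0.0669) without 24-month library 1 and -1.58 (adjusted p = 0.000115) without library 2. Pdp1 behaved alike, with 34.9 and 81.2 CPM at 24 months, against 44.9 and 52.7 CPM at 2 months. Its log2 fold change of 0.25 (adjusted p = 0.666) became 0.68 (adjusted p = 0.0165) without 24-month library 1 and -0.55 (adjusted p = 0.0429) without library 2. With offsets for both length and GC content Pdp1 passed the test (0.96, adjusted p = 0.0172). Pdhb had 129.4 and 172.4 CPM at 24 months, against 137.5 and 118.6 CPM at 2 months, and overlapped. Dlat had 36.3 and 56.4 CPM at 24 months, against 75.1 and 73.6 CPM at 2 months. Dlat was lower in both older libraries without passing the test (log2 fold change -0.68, adjusted p = 0.155), and stood at -0.07 with the RefSeq length offset (adjusted p = 0.899). It passed without 24-month library 2 (-1.09, adjusted p = 0.000745) and in 1 fit of all 10 libraries (-0.63, adjusted p = 0.0144). That fit also called Mpc1 (0.75, adjusted p = 0.0168) and Pdk1 (-0.71, adjusted p = 0.00626).

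**Figure D4:**
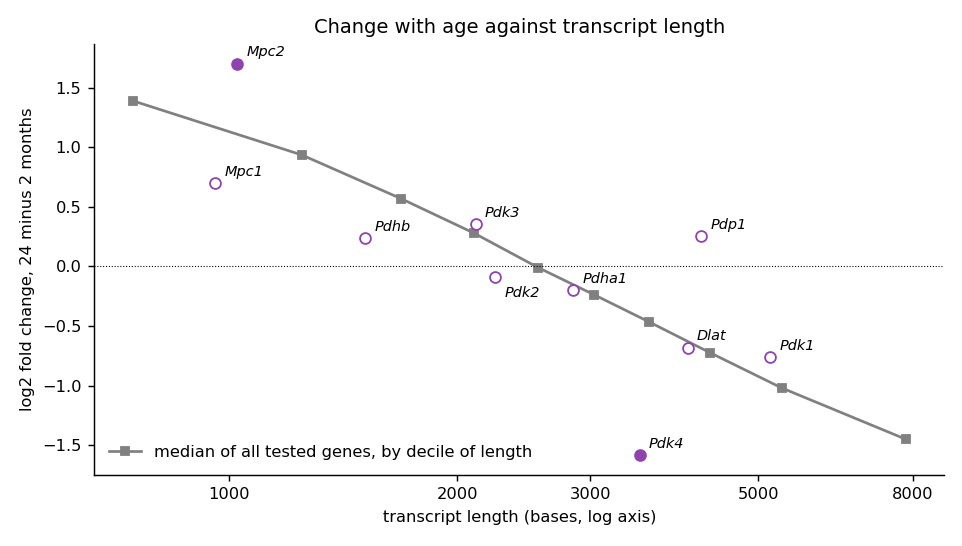
Log2 fold change of 24 minus 2 months (vertical axis) against transcript length in bases (horizontal axis, log scale) for the 10 genes (circles, filled where the adjusted p is under 0.05) and the median of all tested genes in each decile of length (grey squares). The grey line runs from 1.39 in the shortest decile to -1.45 in the longest, and of the 10 genes Mpc2 (1.70) and Pdk4 (-1.58) are filled.

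Of the other genes of the system, 1 of 9 fell with age and 0 rose (0 also by DESeq2 and at an unadjusted p under 0.05). Over all genes 15.1% fell and 13.5% rose. Pdpr, the regulatory subunit of the phosphatase, had 3.80 and 7.01 CPM at 24 months, against 28.7 and 25.1 CPM at 2 months (log2 fold change -2.30, adjusted p = 0.00915; -1.41 and 0.0199 with the length offset). Pdha2, an E1α gene of spermatogenic cells, had 31.3 and 35.4 CPM at 24 months, against 19.3 and 28.8 CPM at 2 months (adjusted p = 0.311). It is among the 13 spermatid markers, of which 10 rose at 24 months. Pdha1 and Pdha2 are similar in sequence, and reads may have been split between them. With age, 3 of 17 genes of other pyruvate steps rose (Gpt 2.41, Slc25a1 1.49 and Me2 1.07 on the log2 scale) and 0 fell, against 3 that fell by DESeq2 or at an unadjusted p under 0.05. Among 13 hypoxia-inducible factor targets 2 rose and 1, Vegfa, fell (-2.58), and among 13 PPAR, FOXO or glucocorticoid targets Angptl4 rose (0.998) and Fkbp5 (-1.85), Cpt1a (-1.69) and Per1 (-0.94) fell. Markers of other cells moved with age beside these members: 5 of 11 tested macrophage markers rose and 3 of 4 fibroblast markers fell. The summed fibroblast level was 126 to 211.4 CPM at 24 months and 587.2 to 618.4 CPM at 2 months. With the RefSeq length offset 1 spermatid, 3 macrophage and 1 fibroblast marker were called in those directions, where 7.45% of all genes rose and 4.23% fell. Their part in the changes of Mpc2 and Pdk4 was not tested.

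The third comparison set MLTC-1 with DMSO against primary cells of 2 months, which differ in origin and in the other cells present. It shares its DMSO libraries with the first comparison and its 2-month libraries with the second. The kinases Pdk1 and Pdk3, the E1 subunits and Mpc1 were higher in the line, and Pdk2, Pdk4, Pdp1, Mpc2 and Dlat were lower. By edgeR over 16092 genes, 5 of 10 members were higher and 5 lower, where 34.4% of all genes were higher and 48.5% lower (82.8% in all). Libraries did not overlap for any of the 10, as for 89.4% of all genes. The median log2 fold change was 0.03 over the members and -0.27 over all genes. With 82.8% of all genes called, the count of members called shows little about them, and the sizes below carry the description.

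Pdk2 had 20.9, 22.3 and 24.5 CPM in MLTC-1, against 354.4 and 317.6 CPM in the 2-month cells. With a wide gap between the groups, it was 14.9-fold lower in the line (log2 fold change -3.90, SE 0.0831, adjusted p = 1.24e-09). Pdk1 had 301.5, 298.7 and 285.1 CPM in MLTC-1, against 52.4 and 52.4 CPM in the 2-month cells. It was 5.63-fold higher in the line, again without overlap (log2 fold change 2.49, SE 0.0630, adjusted p = 2.74e-09). Pdk4 had 37.3, 32.1 and 36.5 CPM in MLTC-1, against 177.2 and 198.5 CPM in the 2-month cells. It was 5.33-fold lower in the line (log2 fold change -2.41, SE 0.0841, adjusted p = 1.75e-08). Pdk3 had 50.8, 48.0 and 44.2 CPM in MLTC-1, against 16.8 and 23.0 CPM in the 2-month cells, 2.40-fold higher (adjusted p = 2.66e-05).

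**Figure D5:**
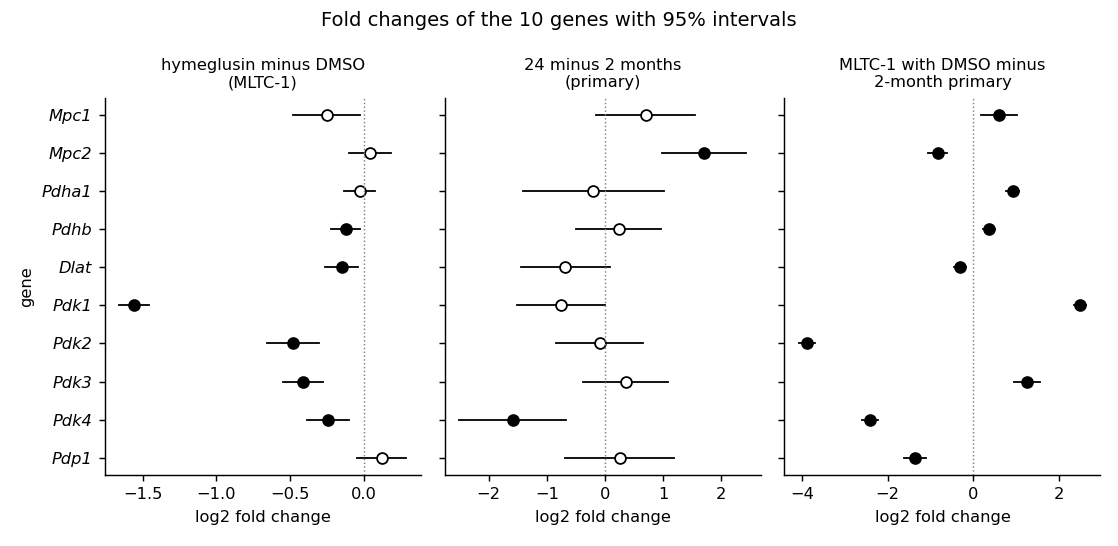
Log2 fold change with its 95% interval (horizontal axes, each panel with its own scale) for the 10 genes in the 3 comparisons; filled circles have an adjusted p under 0.05. With hymeglusin Pdk1 (-1.56) stands apart, with age Mpc2 (1.70) and Pdk4 (-1.58) are filled, and between MLTC-1 with DMSO and 2-month cells all 10 are filled, from Pdk2 (-3.90) to Pdk1 (2.49).

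No other member differed as much as Pdk1, Pdk2 or Pdk4. Pdp1 had 21.2, 19.5 and 21.1 CPM in MLTC-1, against 46.3 and 59.0 CPM in the 2-month cells (log2 fold change -1.36, adjusted p = 4.19e-06). Pdha1 had 111.9, 120.6 and 124 CPM in MLTC-1, against 64.9 and 60.8 CPM in the 2-month cells (log2 fold change 0.92, adjusted p = 2.46e-06). Neither gene overlapped between the groups. Mpc2 was lower in the line (-0.84, adjusted p = 3.76e-05) and Mpc1 higher (0.61, adjusted p = 0.0125), the call of Mpc1 being lost without DMSO library 1 (0.0511) and with the 10 CPM filter (0.0516). Pdhb was higher by 0.36 (adjusted p = 0.000485) and Dlat stood at -0.31 (adjusted p = 0.00164). In 1 fit of all 10 libraries Pdha1 and Dlat were not called (adjusted p = 0.0692 and 0.113).

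Beside the counts that follow, 34.4% of all genes were higher in MLTC-1 and 48.5% lower. The rest of the system was divided, with 4 of 9 genes higher in MLTC-1 (Pcx 2.24, Pdhx 1.11, Pdpr 0.96 and Pdp2 0.87 on the log2 scale) and 4 lower (Dld -1.11, Lias -0.60, Lipt1 -0.59 and Pdha2). Pdha2 had 0 counts in the DMSO libraries, which allows up to 0.0845 to 0.119 CPM, against 26.1 ± 8.76 CPM in the 2-month cells (n = 2). Of 13 hypoxia-inducible factor targets, 11 were higher in the line and 2 lower (median 1.68), with Ak4 (5.40) and Pgk1 (2.89) among the higher. Of 13 PPAR, FOXO or glucocorticoid targets, 12 were lower and 1 higher (median -1.09), with Fabp3 (-2.09) among the lower. Of genes of other pyruvate steps, 10 of 17 were higher and 7 lower. Of 9 related 2-oxo acid dehydrogenase genes, 3 were higher and 5 lower, Ogdhl (-3.09) the most.

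From high to low, Pdk1 ran DMSO, hymeglusin, 2 months and 24 months, Pdk2 and Pdk4 ran 2 months, 24 months, DMSO and hymeglusin, and Mpc2 ran 24 months, 2 months, hymeglusin and DMSO. The tests did not separate 24 from 2 months for 8 members, nor hymeglusin from DMSO for Mpc1, Mpc2, Pdha1 and Pdp1. Hymeglusin against either primary group and DMSO against 24 months were not tested. For the 3 members whose group means spanned the widest range, the genes with the most similar pattern were ranked by the root mean square difference of centred log2 CPM over the 10 libraries, among 10480 genes. Nearest to Pdk2 were Nxph3 (0.21), Glul (0.22) and Chrd (0.22). Nearest to Pdk1 were Ppp1r3b (0.12), Plch2 (0.19) and Slc19a2 (0.28). Nearest to Mpc2 were Jund (0.16), Ndufa5 (0.16) and Htatip2 (0.18). Ppp1r3b, a glycogen-targeting subunit of protein phosphatase 1, averaged 15.9 CPM with hymeglusin, 38.9 CPM with DMSO, 4.28 CPM at 24 months and 6.12 CPM at 2 months. The points share libraries and depth, and the likeness is a description.

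The genes lie on different chromosomes except Pdha1 and Pdk3, both on X (RefSeq gene bounds on GRCm38.p6). Pdk1 spans chr2:71873215-71903858, Pdk2 chr11:95026258-95041371, Pdk4 chr6:5483351-5496278 and Mpc2 chr1:165461260-165481218. Exons of 2 members overlap a gene on the other strand in GENCODE M21: Mpc1 shares 23.1% of its exonic bases with 4930506C21Rik and Pdha1 16.2% with Map3k15. Whether counting used strand is not stated, and each partner had at most 44 counts in any library.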

How the data were processed

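The authors deposited raw, unnormalized counts for each gene symbol in all 10 libraries. Libraries were NEBNext Ultra, from RNA of an RNeasy kit, per the labels' protocols. The submitters' processing notes name mm10, HISAT2 2.2.1, featureCounts 2.0.6, fastp 0.23.4 and FastQC 0.12.1. The strand setting and annotation of the counting were not found in these sources. All 25239 symbols were unique, and 0 value columns lacked a sample.

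Each comparison was fitted on its own libraries with edgeR 4.0.16 in R 4.3.3: filterByExpr (minimum count 10, minimum total 15), TMM scaling, and its robust quasi-likelihood test (two-sided), adjusted by Benjamini-Hochberg over all genes tested and a threshold of 0.05. CPM in a comparison are on its own TMM scale, and levels per kb, marker sums and ratios on a scale common to all libraries. A standard error (SE) is that of the log2 fold change. Length is that of the longest GENCODE M21 transcript paired with a RefSeq mRNA. A count of 0 allows up to 3 counts, for counting error only.

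Named genes are all members, all other genes of the system, up to 3 genes per direction of each other list by adjusted p (not all are printed, and 1 is not reported here), and the 3 genes nearest in pattern to 3 members. Members and lists were chosen with earlier results of these data known. Alternatives were DESeq2 1.42.0, limma-voom (limma 3.58.1), scaling by RLE, upper quartile or total counts, a filter at 10 CPM or none, a replicate block, 1 fit of all libraries, loess offsets (span 0.3) for length and GC content, and leaving out each library. Offsets from RefSeq-matched lengths were added after seeing the data. The fits were also run on simulated data with a preset spread and no trend with transcript length. Those runs cannot show how the fits behave with the spread and length trend of these libraries.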

Additional observations from a re-analysis of the deposited data

How the results depend on the processing

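With hymeglusin, 158 of 190 values of the 10 genes under alternatives kept their direction and call, 21 lost the call, 3 gained one and 8 changed sign. With age these were 132, 7, 11 and 19 of 169, and between MLTC-1 and 2-month cells 176, 4, 0 and 0 of 180. One fit of all libraries called 934 genes (645 higher, 289 lower) and 1 member with hymeglusin, against 6218 and 6. Leaving out 1 library each gave 5397 to 5964 genes and 4 to 7 members. With age, 4685 genes and 2 members were called, against 1832 and 1 with total counts, 8868 and 5 in 1 fit, 2145 and 2 with the length offset, 1914 and 1 with the RefSeq length offset, 2909 and 2 with RefSeq length and GC content, and 841 to 9887 genes and 0 to 6 members on leaving out 1 library. Without 2-month library 1 there were 841 genes and 0 members and without library 2 1453 and 0, and without 24-month library 1 there were 6671 and 5 and without library 2 9887 and 6. The library left alone in its group is there assumed to vary like the other group. The cause of these shifts was not tested.

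Changes of sign concerned genes that were not called in the main fit of that comparison. With hymeglusin, Pdha1 (-0.03) was at 0.00381 with upper quartile, 0.078 with total counts, 0.0558 in 1 fit, 0.00434 with length and GC content and 0.000255 with RefSeq length and GC content, and between -0.068 and 0.00198 on leaving out a library; Mpc2 was between -0.00237 and 0.0703. With age, Mpc1 was at -0.462 with length, -0.42 with length and GC content, -0.395 with RefSeq length and -0.315 with RefSeq length and GC content. Pdk1 was at 0.112, 0.165, 0.224 and 0.309 in the same order, Pdhb at -0.418 and -0.322 with the RefSeq offsets, Dlat at 0.0179 with the last and Pdk3 at -0.0182 with length. Pdk2 was at 0.0975 with upper quartile and 0.0317 with the 10 CPM filter. On leaving out a library, Pdha1 ranged from -1.58 to 0.43, Pdhb from -0.0409 to 0.383, Pdk2 from -0.381 to 0.061 and Pdp1 from -0.546 to 0.682, of which Pdp1 passed the test in both directions.

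Total-count scaling moved the median log2 fold change of all genes with hymeglusin to 0.11 and the share of higher genes among calls to 70%, against 49.4%. With age the share was 47.3%, against 29% with total counts (median -0.21) and 59.6% with upper quartile (median 0.17). All 4 kinases stayed lower with hymeglusin under each scaling. The 10 CPM filter removed Mpc1 from the age comparison.

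Deviations of same-numbered libraries from their group means had correlations of 0.000721, -0.021 and 0.0385 with hymeglusin and -0.0879 with age. Deviations within so small a group cancel out, so these values cannot decide whether the numbers pair the samples. With the replicate block 6360 genes and 6 members were called with hymeglusin, 4774 and 2 with age, and 12806 and 10 between MLTC-1 and 2-month cells.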
